A study of Mus musculus with 6 samples.

Results

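The genes that turn cholesterol into testosterone in Leydig cells were followed in the testes of 3 Prss54KO and 3 WT mice. The 10 genes listed were Star, Cyp11a1, Fdx1, Hsd3b1, Hsd3b6, Cyp17a1, Hsd17b3, Lhcgr, Nr5a1 and Insl3, and the array's probes were chosen by gene name. Of the 41174 gene-detecting probes, 15 carried one of these names. They covered 9 of the 10 genes, out of 27376 gene names on the array, because no probe was named Insl3. Prss54KO testes came from male mice in which Prss54, a serine protease gene, was knocked out, and WT testes from male mice with the gene intact. All mice were aged between 6 and 8 weeks, and both genotypes share a background that mixes 129Sv with C57BL/6. The labels give neither the deleted part of the gene nor the litters. Total RNA of the whole testis was hybridised to 1-colour Agilent arrays, with 1 array per mouse.

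Leydig cells lie between the seminiferous tubules and make nearly all of the testis's androgen. Luteinising hormone binds the receptor encoded by Lhcgr, cyclic AMP rises, and STAR carries cholesterol into the mitochondrion, where CYP11A1, fed with electrons by ferredoxin (Fdx1), makes pregnenolone. The HSD3B enzymes, CYP17A1 and HSD17B3 then lead to testosterone, and Nr5a1 encodes SF-1, a nuclear receptor that turns on many genes of the pathway. Insl3 encodes a peptide hormone of Leydig cells needed for testis descent.

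All values below are scaled signals, in intensity units. Each array's processed signal was divided by that array's 75th percentile and multiplied by the mean of the 6 percentiles, 1653. Probes bind with different strength, so a brighter probe does not mean a more abundant transcript. Each difference is the mean log2 level in Prss54KO less that in WT, with limma's standard error (SE). Across the arrays 66.2% to 74.8% of gene spots were well above background and 0 were saturated, and the 75th percentile lay between 1587 and 1707. Slide 1 held Prss54KO replicate 3 alone. Slide 2 held Prss54KO replicates 1 and 2 and WT replicate 3, and slide 3 held the remaining 2 WT mice. The targeted gene, Prss54 (chr8:98082993-98083052, mm9, minus strand), gave 7302, 9456 and 8268 in the Prss54KO mice, against 23197, 25159 and 25295 in the WT mice. The Prss54KO level was 33.8% of that in WT (difference -1.56, SE 0.10, limma's adjusted p = 0.0766).

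The probe sequences below belong to enzymes and the electron carrier of the pathway. They are the deposited sequences of 60 bases, and show how the values of these genes were read. The probes of Cyp17a1 and Hsd17b3 and the brighter pair of Cyp11a1 cross a gap in the genome, since each span on the mm9 build is longer than the probe. Capitals mark the 40 bases that the 2 brighter Fdx1 probes share, so these 2 probes read largely the same stretch of the transcript. In the other sequences no part is marked.
Cyp11a1 (chr9:57873365-57873902, mm9, plus strand): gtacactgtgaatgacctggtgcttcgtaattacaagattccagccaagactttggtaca
Cyp11a1 (chr9:57874074-57874544, mm9, plus strand): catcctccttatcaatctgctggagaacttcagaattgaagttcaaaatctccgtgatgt
Cyp17a1 (chr19:46742594-46743207, mm9, minus strand): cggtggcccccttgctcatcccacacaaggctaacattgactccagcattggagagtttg
Hsd17b3 (chr13:64159943-64160741, mm9, minus strand): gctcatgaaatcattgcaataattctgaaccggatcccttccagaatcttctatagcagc
Fdx1 (chr9:51756731-51756790, mm9, minus strand): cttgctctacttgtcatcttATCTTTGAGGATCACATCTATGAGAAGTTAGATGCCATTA
Fdx1 (chr9:51756711-51756770, mm9, minus strand): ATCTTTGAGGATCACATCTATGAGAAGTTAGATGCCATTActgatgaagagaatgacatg

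No gene of the pathway passed limma's test over all 19398 genes, where 0% of genes (0 of 19398) reached an adjusted p under 0.05. At an unadjusted p under 0.05 the count was 0 of the 9 genes, beside 3.31% of all genes (642). Of the 9, 6 lay below 0 and 3 above, and 46.8% of all genes lay below 0. Their median difference was -0.05, against 0.01 over all genes. For 8 of the 9 the difference was under 0.2 in size, which held for 89.4% of all genes. Star was the exception, with the widest range between mice. In whole testis RNA, fewer Leydig cells and less RNA per Leydig cell cannot be told apart. Whole testis RNA also does not show which cells gave each gene's signal.

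Star, which carries cholesterol to the inner mitochondrial membrane and so sets the pace of steroid synthesis, had 2 probes. The brighter one (chr8:26924735-26924794, mm9, plus strand) gave 2458, 3040 and 2448 in the Prss54KO mice, against 4231, 2736 and 5230 in the WT mice. WT replicates 1 and 3 stood above every Prss54KO mouse, whereas WT replicate 2 lay inside the Prss54KO range. The means were 2649 ± 339 in Prss54KO and 4066 ± 1255 in WT (SD, n = 3 each), so the spread was wider among the WT mice. The difference was -0.58 (SE 0.24, 95% interval -1.17 to 0.02), a level 1.49-fold lower in Prss54KO (95% interval 0.989 to 2.25). It did not pass limma's test (unadjusted p = 0.0546, adjusted p = 0.9999), and the exact permutation p was 0.2. The smallest value that 3 mice against 3 allow in that two-sided permutation test is 0.1. By size the Star difference exceeded that of 98.9% of all genes, and by unadjusted p it ranked 709 of 19398.

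The dimmer Star probe (chr8:26925460-26925519) gave 819.5, 1049 and 758.6 in the Prss54KO mice, against 1515, 919.5 and 1949 in the WT mice. The same 2 WT mice were high. Its difference was -0.69 (SE 0.28) in limma's fit over probes, with an unadjusted p of 0.0514 and an adjusted p of 0.9998. The 2 probes ranked the 6 mice identically, with a Pearson r of 0.997 (exact permutation p = 0.00139, adjusted 0.0153 over the 11 pairs of probes of one gene) and a Spearman rho of 1 (exact permutation p = 0.00278, adjusted 0.0306). Without WT replicates 1 and 3, the 2 arrays farthest from the median, r was 0.978. The 2 probes share the RNA and the array of each mouse.

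The Star difference depended on which mice were compared. On slide 2, which sets Prss54KO replicates 1 and 2 against WT replicate 3 alone, the highest WT mouse, it was -0.94. Slide as a fixed block gives the same contrast, since the other slides each hold 1 genotype. Without WT replicate 2 it was -0.84 (unadjusted p = 0.00227), and without WT replicate 3 it was -0.37 (unadjusted p = 0.142). Limma's adjusted p for Star lay at 0.877 or above over the 19 alternative settings. Star (from chr8:26924735) and Prss54 (from chr8:98082993) are both on chromosome 8, and the Jak3-named probes described below lie between them. The part of linked DNA in the values of Star and of those probes was not tested. For the list genes and the genes most like Star, named below, no positions are given. Linked DNA was not tested for them either.

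**Figure D1:**
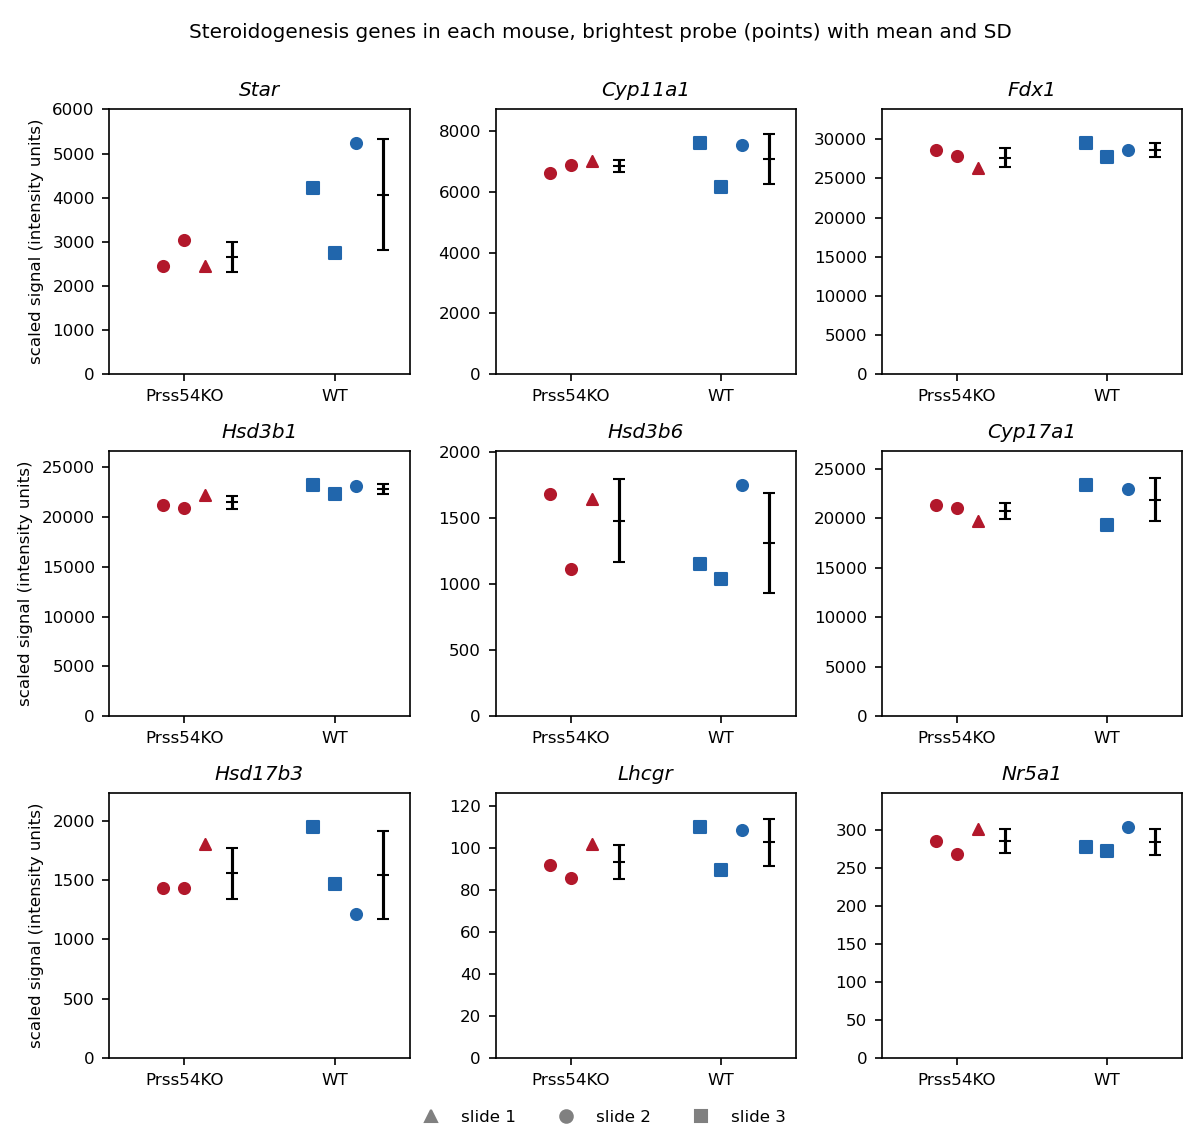
Scaled signal of the brightest probe of each of the 9 genes (vertical axis from 0, intensity units), with 1 point per mouse, its slide shown by the marker, the Prss54KO mice left of the WT mice, and the mean and SD beside each genotype. Star is spread from 2448 to 5230 with WT replicate 2 among the Prss54KO values, and Hsd3b1 is the only gene whose genotypes do not overlap.

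Cyp11a1 encodes the side-chain cleavage enzyme that makes pregnenolone. Its brightest probe gave 6630, 6886 and 7025 in the Prss54KO mice, against 7592, 6147 and 7530 in the WT mice. The Prss54KO values all lay inside the WT range. The difference was -0.04 (SE 0.09, 95% interval -0.27 to 0.19), and the second bright probe gave -0.02 (SE 0.11). The remaining, dim probe (chr9:57869600-57869659) was well above background in 5 of 6 mice. It gave 79.3, 15.3 and 30.5 in the Prss54KO mice, against 41.6, 158.8 and 52.5 in the WT mice, a difference of -1.08 (SE 0.74). This probe was highest in WT replicate 2, where the 2 bright probes were lowest, so the dim probe ordered the mice differently.

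Fdx1, the mitochondrial electron carrier for CYP11A1, had 3 probes. Its brightest probe gave 28668, 27899 and 26307 in the Prss54KO mice, against 29471, 27697 and 28568 in the WT mice, a difference of -0.05 (SE 0.06). The overlapping probe gave 15455, 15416 and 15524 in the Prss54KO mice, against 16191, 15696 and 16437 in the WT mice. There the genotypes did not overlap, with a difference of -0.06 (SE 0.05, exact permutation p = 0.1). The third probe (chr9:51751511-51751570) gave 6175, 7067 and 6444 in the Prss54KO mice, against 7788, 6947 and 7945 in the WT mice. Its difference of -0.20 (SE 0.08) had an unadjusted p of 0.045, which 3.21% of all probes reached, and an adjusted p of 0.9998 in limma's fit. Prss54KO replicate 2 exceeded WT replicate 2 on this probe. Of the 15 probes, 11 lay below 0, and 2 did not overlap between genotypes, beside 7.88% of all probes.

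Hsd3b1 and Hsd3b6 encode enzymes that turn pregnenolone into progesterone and make the corresponding later steroids. Hsd3b1 (chr3:98656330-98656389, mm9, minus strand) gave 21244, 20933 and 22184 in the Prss54KO mice, against 23165, 22272 and 23123 in the WT mice. Every Prss54KO mouse lay below every WT mouse, which was so for 1 of the 9 genes and, in either direction, for 7.79% of all genes (3.61% lower in Prss54KO). The means were 21454 ± 652 in Prss54KO and 22853 ± 504 in WT (SD, n = 3 each), and the difference was -0.09 (SE 0.05, exact permutation p = 0.1, limma's adjusted p = 0.9999). Hsd3b6 (chr3:98610436-98610495, mm9, minus strand) gave 1685, 1117 and 1646 in the Prss54KO mice, against 1154, 1040 and 1749 in the WT mice. WT replicate 3 and Prss54KO replicates 1 and 3 were high, and the difference was 0.19 (SE 0.25). Slide as a fixed block, which compares only Prss54KO replicates 1 and 2 with WT replicate 3, gave -0.35. Slide as a random block, over all 6 mice, gave 0.13. Hsd3b2, of a list below, ranked the mice in the same order as Hsd3b6. It gave 4747, 2822 and 4180 in the Prss54KO mice, against 2944, 2575 and 4829 in the WT mice (difference 0.20, SE 0.29). Hsd3b5 was also highest in WT replicate 3 and Prss54KO replicates 1 and 3, and Hsd3b4 was not. Outside the Hsd3b family, Sult1e1 and Prlr, also of lists below, were highest in the same mice, so this split is not particular to Hsd3b probes. Whether the Hsd3b probes bind each other's transcripts was not tested.

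The 250 bases before the start of Hsd3b1 and Hsd3b6 are taken from RefSeq (GRCm38.p6). They are shown because they alone among the listed genes' windows hold AGATAA, a form of the motif bound by GATA factors. Only this spelling was searched. Close spellings occur in other windows, such as TGATAA in that of Fdx1 and AGATAG in a window of Cyp11a1. Of the 10 listed genes, 7 had at least 1 window in the table, 8 windows in all, each of 250 bases before and 50 bases after the start. Star, Cyp17a1 and Nr5a1 had no window, so they were not searched. Searched on both strands, AGATAA was in 2 of 8 windows and in 11.2% of the 32851 windows in the table. AAGGTCA, a motif bound by SF-1, was in 0 of 8 windows and 4.72% of all, and TATAAA in 0 of 8 and 13.6% of all. The shorter AGGTCA is in the window of Lhcgr and in a window of Cyp11a1. A search for exact spellings therefore cannot show that sites for SF-1 are absent. Capitals mark AGATAA or its reverse complement, which starts 134 bases before the gene start in Hsd3b1, on the reverse strand, and 31 bases before it in Hsd3b6. A match is a description of letters, and binding was not measured.
Hsd3b1 (chr3:98859795-98860044, GRCm38.p6, minus strand): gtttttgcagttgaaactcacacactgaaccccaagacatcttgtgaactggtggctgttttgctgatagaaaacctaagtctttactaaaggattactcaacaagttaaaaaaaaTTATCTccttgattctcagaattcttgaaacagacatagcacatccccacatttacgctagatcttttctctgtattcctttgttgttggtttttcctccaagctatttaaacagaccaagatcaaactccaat
Hsd3b6 (chr3:98814444-98814693, GRCm38.p6, minus strand): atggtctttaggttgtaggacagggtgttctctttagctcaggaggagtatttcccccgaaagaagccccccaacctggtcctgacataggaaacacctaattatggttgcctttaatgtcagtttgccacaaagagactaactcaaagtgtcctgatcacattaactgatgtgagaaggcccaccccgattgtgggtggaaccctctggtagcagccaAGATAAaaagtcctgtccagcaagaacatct

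Cyp17a1, the hydroxylase and lyase that opens the way to androgens, gave 21328, 21066 and 19762 in the Prss54KO mice, against 23308, 19330 and 22982 in the WT mice. WT replicate 2 was the lowest mouse and WT replicates 1 and 3 the highest. The difference was -0.07 (SE 0.09). Hsd17b3, the testis enzyme that makes testosterone from androstenedione, gave 1437, 1429 and 1805 in the Prss54KO mice, against 1943, 1469 and 1215 in the WT mice. Here WT replicate 3, high for Star and Cyp17a1, was the lowest of all, and the difference was 0.03 (SE 0.19).

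Lhcgr, the luteinising hormone receptor (chr17:89141300-89141359, mm9, minus strand), gave 92.1, 86.0 and 102 in the Prss54KO mice, against 110, 89.8 and 109 in the WT mice. WT replicate 2 again lay inside the Prss54KO range, and the difference was -0.14 (SE 0.11, unadjusted p = 0.245). Nr5a1, on its brighter probe (chr2:38549021-38549080, mm9, minus strand), gave 286, 269 and 301 in the Prss54KO mice, against 278, 272 and 304 in the WT mice, a difference of 0.01 (SE 0.07). The genotypes overlapped throughout. The dimmer Nr5a1 probe (chr2:38556959-38557018), well above background in 5 of 6 mice, gave 50.9, 49.5 and 63.3 in the Prss54KO mice, against 39.5, 54.6 and 36.3 in the WT mice. Its difference was 0.34 (SE 0.18), and neither probe passed limma's test.

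Insl3 had no probe of its own name. Outside the naming rule, and found after the files were seen, 2 probes named Jak3 also list the Insl3 accession, and the RefSeq table places Jak3 and Insl3 on overlapping stretches of the genome. The brighter one (chr8:74214308-74214367) gave 257894, 222382 and 214429 in the Prss54KO mice, against 229247, 186052 and 227232 in the WT mice (difference 0.11, SE 0.11). The other (chr8:74214085-74214144) gave 105678, 87068 and 70010 in the Prss54KO mice, against 76884, 65990 and 90241 in the WT mice (difference 0.16, SE 0.18). A further Jak3 probe, with no Insl3 accession, gave 449, 424 and 329 in the Prss54KO mice, against 340, 351 and 502 in the WT mice (difference 0.02, SE 0.19). The genotypes overlapped on all 3 probes, and the bright signal cannot be assigned to Insl3 or Jak3 from these files.

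**Figure D2:**
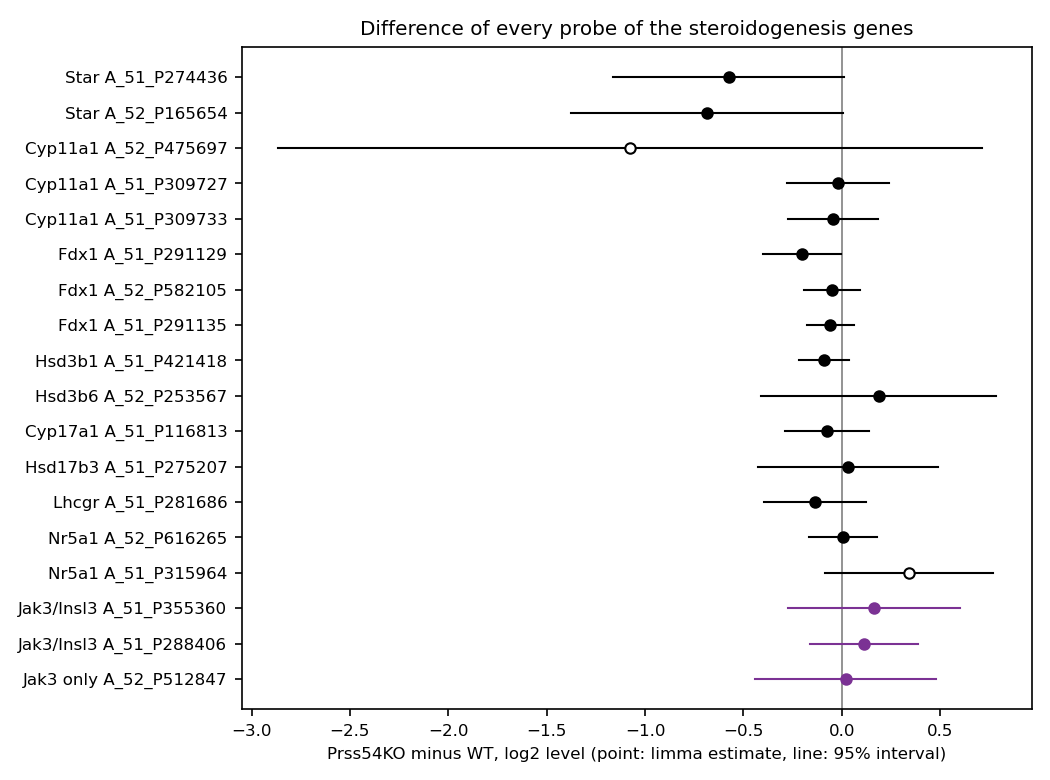
Difference (Prss54KO minus WT, log2) with its 95% interval for every probe of the listed genes, and for the Jak3-named probes in purple. Open circles mark the probes that were well above background in 5 of 6 mice, and the widest interval is that of the dim Cyp11a1 probe at -1.08.

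Mice of one genotype differed in Star, Hsd3b6 and Hsd17b3 more than in most genes. The SD within genotypes was 0.36 for Star, above that of 94.95% of all genes, 0.37 for Hsd3b6, above 95.2%, and 0.28 for Hsd17b3, above 90.2%. Hsd3b1 and Fdx1 were steadier, with an SD of 0.04 for Hsd3b1 and 0.05 for Fdx1, above 7.13% and 18.4% of all genes. Over the 9 genes the median SD was 0.13, against 0.10 over all genes. From the lowest to the highest mouse the signal spanned 2.14-fold for Star, 1.68-fold for Hsd3b6 and 1.60-fold for Hsd17b3. For Hsd3b1 the span was 1.11-fold.

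WT replicate 2 was low and WT replicates 1 and 3 were high for most of the genes. The median deviation of the 9 genes from their WT mean was -0.08, -0.08 and -0.01 (log2) in the Prss54KO mice, against 0.10, -0.17 and 0.09 in the WT mice. WT replicate 1 had the highest level for 6 of the 9 genes and WT replicate 3 for the other 3. The number of genes below the WT mean was 6, 9 and 6 of 9 in the Prss54KO mice, against 2, 9 and 2 in the WT mice. These counts use the same mice that define the WT mean and carry no test.

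**Figure D3:**
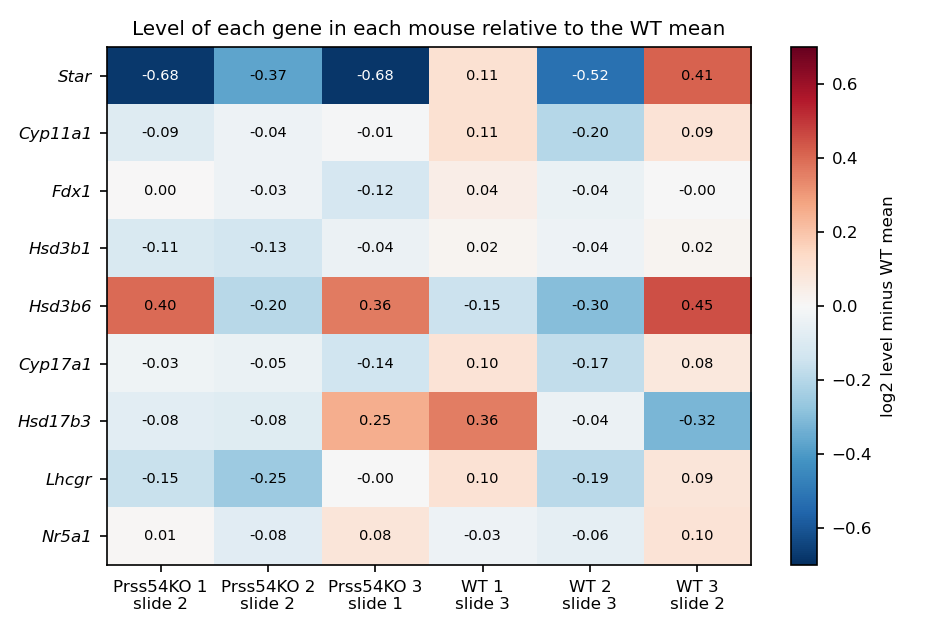
Deviation of each of the 9 genes from its WT mean (log2, coloured from blue below to red above) in each mouse, with the Prss54KO mice before the WT mice. WT replicate 2 lies below its WT mean for 9 of 9 genes, and Star spreads the widest.

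The 36 pairs among the 9 genes were compared over the 6 mice. Of these, 29 had a positive Pearson r and 7 a negative one, with a median r of 0.36 and a range of -0.27 to 0.91. Over all pairs of the genes tested, the median r was -0.001 and 49.9% were positive. The highest r was that of Hsd3b6 with Nr5a1, at 0.91 (Spearman rho 0.89, exact permutation p = 0.0361 for r, adjusted 0.358 over the 36 pairs), and it was 0.86 without the 2 farthest mice. Hsd3b1 with Lhcgr reached 0.88 (rho 0.83, exact permutation p = 0.0333, adjusted 0.358) and 0.78 without them. Cyp11a1 with Cyp17a1 reached 0.83 (rho 0.77, exact permutation p = 0.0375, adjusted 0.358) and 0.54 without WT replicates 1 and 2, so it rests on those mice. These 3 pairs had an unadjusted exact permutation p under 0.05 for r. For rho, Hsd3b6 with Nr5a1 and Fdx1 with Cyp17a1 did so (rho 0.89, exact permutation p = 0.0333, adjusted 0.525 in each). No pair passed after Benjamini-Hochberg adjustment, the smallest adjusted p being 0.358 for r and 0.525 for rho.

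Star with Cyp17a1 gave r of 0.82 (exact permutation p = 0.0597, adjusted 0.358), and without WT replicates 1 and 3 it was 0.13. Star with Cyp11a1 gave 0.75, and -0.10 without the same 2 mice, so both relations rest on them. Hsd17b3 was the gene least like the others, with a negative r in 5 of its 8 pairs. Centred on each genotype's mean, the median r of the 36 pairs was 0.41. The slides hold 3, 2 and 1 arrays, too few for an r within a slide, and all pairs share the same 6 mice.

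**Figure D4:**
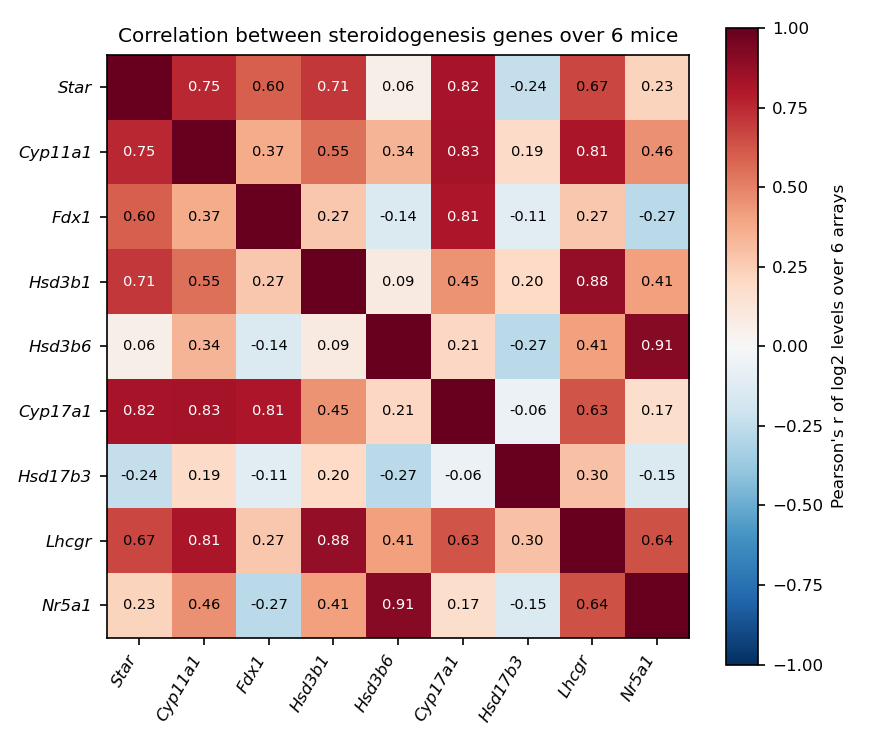
Pearson r over the 6 mice for every pair of the 9 genes, coloured from blue (negative) to red (positive). Most cells are positive, and the Hsd17b3 cells include 5 of the 7 negative values.

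Over the 6 mice, the gene most like Star was Slc16a3, a lactate transporter, with r of 0.996. It gave 978, 1140 and 1018 in the Prss54KO mice, against 1412, 1064 and 1688 in the WT mice, a difference of -0.39 (SE 0.17). It was -0.68 with slide as a fixed block and -0.23 without WT replicate 3. Fam222a (0.983), Dok2 (0.982), Zfp809 (0.981), Tex33 (0.975) and Nup93 (0.972) followed, and 68 of 19396 genes (0.351%) had r over 0.9 with Star. The genes most like the mean standardised level of the 9 were Shcbp1l (0.990), Elp6 (0.987), Adamts12 (0.973), Txndc11 (0.972), Fam207a (0.972) and Dolk (0.966). These are descriptions of 6 arrays, picked as the highest r over all genes.

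Other genes of the pathway were read from 4 lists with 74 entries, of which 66 were tested. Of the 66, 6 had an unadjusted p under 0.05 (9.09%, beside 3.31% of all genes) and 0 passed limma's adjustment. The lists were chosen with earlier results of these data known, so this share is a description only. In the list of steroid enzymes and redox partners, 20 of 24 entries were tested, 13 below 0 and 7 above, with a median of -0.05. Cyb5b, a cytochrome b5 of the outer mitochondrial membrane, gave 4173, 4085 and 4154 in the Prss54KO mice, against 5081, 5049 and 4644 in the WT mice (difference -0.25, SE 0.06). Cyp19a1, the aromatase that turns androgens into estrogens, gave 274, 274 and 262 in the Prss54KO mice, against 311, 308 and 317 in the WT mice (difference -0.21, SE 0.05). For neither gene did the genotypes overlap, which was so for 7.79% of all genes. The unadjusted p was 0.00424 for Cyb5b and 0.00475 for Cyp19a1, with an adjusted p of 0.9999 in limma's fit. The genes of this paragraph were named for an unadjusted p under 0.05, so a lack of overlap is no separate support. Srd5a2, which makes dihydrotestosterone, was at -0.36 (SE 0.15), and Cyp7b1, an oxysterol hydroxylase, was at 0.41 (SE 0.14) and also did not overlap. With normexp background Srd5a2 was at -0.15 and Cyp7b1 at 0.23.

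Among luteinising hormone signalling genes and transcription factors, 18 of 21 entries were tested, 10 below 0 and 8 above. Cebpb, a transcription factor, gave 521, 272 and 299 in the Prss54KO mice, against 569, 541 and 514 in the WT mice, a difference of -0.63 (SE 0.24). Prss54KO replicate 1 lay among the WT mice, and the mean of the Cebpb probes gave -0.39. Crem, read by the brightest probe of the list, was at 0.06. In the list of cholesterol supply and mitochondrial import, 16 entries were tested, 11 below 0 and 5 above, with a median of -0.02 and 0 at an unadjusted p under 0.05. Its named genes were Dbi, a carrier of acyl-CoA, at 0.04, Stard5 at -0.11 and Abca1, a cholesterol exporter, at 0.16. Of the other Leydig cell genes, 12 of 13 were tested, 6 below 0 and 6 above, with a median of -0.02, including Fabp3 at -0.11, Dlk1 at -0.13 and Klk1b21 at -0.29.

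Markers of other cell types were read beside these values. The adrenal cortex, which shares most of the pathway, was represented by Mc2r alone, its corticotropin receptor, at 92.3, 106 and 114 in the Prss54KO mice, against 76.6, 61.5 and 97.2 in the WT mice (difference 0.43, SE 0.18). The Mc2r difference was 0.026 with slide as a fixed block, 0.25 with normexp background and 0.27 without WT replicate 2. Cyp11b2, Cyp21a1 and Akr1b7 did not pass the filter of well above background in 3 of 6 mice. All 6 fibroblast and matrix genes lay below 0, with a median of -0.54. Their summed signal was 33833 to 48933 in Prss54KO and 47238 to 60786 in WT. Their median deviation from the WT mean was -0.41, -1.03 and -0.17 in the Prss54KO mice, against -0.04, -0.15 and 0.18 in the WT mice. It was lowest in Prss54KO replicate 2, where Star was the highest of the Prss54KO mice. It was highest in WT replicate 3, where Star was highest too. The macrophage list had 5 of 5 genes below 0 (median -0.07) and the endothelial list 5 of 6 (median -0.10). The Sertoli cell list had a median difference of 0.02 with 0 of 10 genes at an unadjusted p under 0.05. Its summed signal was 180144 to 191938 in Prss54KO and 173223 to 179907 in WT. A sum gives most weight to bright probes, here Clu (difference 0.01, SE 0.06) and Defb19 (difference 0.20, SE 0.12). That of the 9 steroidogenesis genes was 81582 to 83828 in Prss54KO and 81053 to 91252 in WT. Of the epididymis list 2 of 4 entries were tested, Lcn9 at 0.52 (SE 0.26) and Defb41 at 0.21 (SE 0.06). The fat list had 1 gene above 0 and 3 below (median -0.20). In WT replicate 3 Fabp4 was highest, at 356, and Adipoq lowest, at 2731. Neither list had a gene past limma's adjusted 0.05. The part of these cell types in the Star values was not tested.

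**Figure D5:**
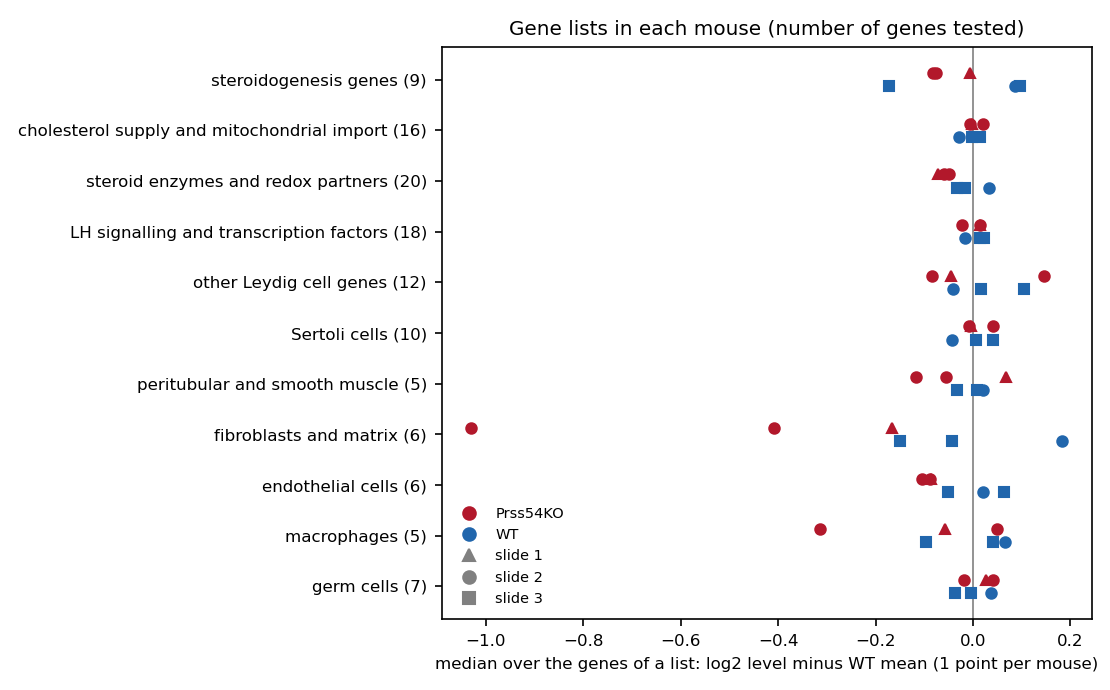
Median deviation from the WT mean (log2) of the steroidogenesis genes, the 4 pathway lists and 6 lists of other cell types, with 1 point per mouse, its slide shown by the marker, and the Prss54KO mice drawn above the WT mice. The fibroblast and matrix list is lowest in Prss54KO replicate 2, at -1.03, and the steroidogenesis genes stay between -0.17 and 0.10.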

How the data were processed

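The members and gene lists were chosen with earlier results of these data known. The deposited scanner files hold linear spot intensity, and their software was Agilent Feature Extraction 10.7.3.1 per the file headers (10.7 per the submitters' processing notes). The processed signal had the scanner software's own background treatment. The deposited table holds log2 values, which the authors had normalized by steps not given in the sources used here, and it served as an alternative only. Probe positions are on mm9 per the file headers, and no mm9 annotation was used to place them in exons.

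From each array, spots marked as outliers were left out (86 to 142 of 43379), log2 of the processed signal minus the 75th percentile was taken, and spots of a probe were averaged. The 28923 probes that stood well above background on 3 or more of the 6 arrays were kept, and the brightest stood for its gene (19398 genes). Genotypes were compared with limma 3.58.1 in R 4.3.3, two-sided. P-values were adjusted by Benjamini-Hochberg over the whole table, with a threshold of 0.05. For probes, the fit ran over all 28923. The fit was also run on simulated data with independent errors and known differences larger than that of any of the 9 members. That run does not show whether differences of their size would be found. The labels call the samples replicates without saying how the mice are related, so whether they are independent is not known. Limma set each difference against the spread between these mice, moderated by that over all genes. The number of arrays limits the precision. Named genes were the 9 members, Prss54, list genes at an unadjusted p under 0.05 or else the 3 with the smallest p, plus the brightest, and the 6 genes most like Star and 6 most like the member mean. Marker genes, and Hsd3b2, Hsd3b4, Hsd3b5, Sult1e1 and Prlr, were named where a value touched a result. A result of the luteinising hormone signalling list is not reported here. Alternatives changed scaling, background, filter, probe choice, input table, slide, replicate block, array weights, variance model or mice left out.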

Additional observations from a re-analysis of the deposited data

How the results depend on the processing

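The counts and differences above were recomputed under 19 alternatives, and 30 of the 39 genes followed singly kept their sign in all of them. Star stayed below 0 in all 19, and no steroidogenesis gene passed an adjusted p of 0.05 in any. Among all genes the number passing limma's adjusted 0.05, 0 as reported, was 1 with normexp background and with slide as a fixed block, and 2 with the filter on all 6 arrays and with trend and robust variance. The genes at an unadjusted p under 0.05 numbered 1136 with no filter, and 384 to 1259 with 1 mouse left out, against 642. Of the 9 steroidogenesis genes, 0 had an unadjusted p under 0.05 as reported. The number was 1 (Star) with quantile scaling, the filter on all 6 arrays, the authors' table, slide as a fixed block, slide as a random block, slide 2 alone, and trend and robust variance. It was 2 with normexp background (Star and Lhcgr), and 0 to 1 with 1 mouse left out. The median r over pairs was 0.17 with normexp background and 0.26 to 0.52 with 1 mouse left out, against 0.36.

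Directions turned for several genes, and the cause was not tested. Slide as a fixed block and slide 2 alone rest on 1 WT mouse. With slide as a fixed block and on slide 2 alone, Hsd3b6 was -0.35, Nr5a1 -0.13, Dlk1 0.13 and Klk1b21 0.26. Nr5a1 was also -0.015 with median scaling and -0.0075 with slide as a random block. Hsd17b3 was -0.075 with array weights, Dlk1 0.087 with the mean of probes, and normexp background gave -0.0036 for Hsd17b4 and 0.012 for Fam207a. With the mean of probes, which includes their dim probes, Cyp11a1 was -0.38 and Nr5a1 0.17. With 1 mouse left out, Cyp11a1 ran from -0.14 to 0.0088, Hsd17b3 from -0.13 to 0.21, Nr5a1 from -0.033 to 0.054, Crem from -0.0085 to 0.10 and Klk1b21 from -0.64 to 0.0054. Same-numbered mice did not deviate together (r of -0.04, 0.02 and -0.16), and the main fit did not pair them. With 1 mouse of each genotype per number, these values cannot show whether the numbers mark pairs. A replicate block gave 780 genes at an unadjusted p under 0.05 and 0 past adjustment, with Star at -0.58 (unadjusted p = 0.101). With 3 mice per genotype the interval for Star, -1.17 to 0.02, leaves its size poorly known, and the dim probes of Cyp11a1 and Nr5a1 are near background. The Lhcgr probe (86.0 to 110) and those of Srd5a2, Cyp7b1 and Mc2r also read low, though well above background in every mouse.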
